A study of Mus musculus with 12 samples.

Results

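Bile acids are made in hepatocytes from cholesterol, conjugated, pumped into the bile canaliculus, and taken back from portal blood at the sinusoidal membrane. The nuclear receptor FXR senses them and, through the repressor SHP, restrains the synthesis enzymes. Bile duct ligation (BDL), the surgical closure of the common bile duct, blocks this flow and is a standard mouse model of cholestasis. The genes described here are 10 central genes of that circuit, chosen by symbol for their roles: the uptake carriers Slc10a1 and Slco1b2, the canalicular exporters Abcb11, Abcb4 and Abcc2, the synthesis enzymes Cyp7a1 and Cyp8b1, and the sensors and regulators Nr1h4, Nr0b2 and Gpbar1. Of these 10, 9 were found by symbol among 16969 gene symbols, and 6 of the 9 passed a minimum of 10 summed normalized counts, as did 12889 genes in all. Abcc2 (9.16 summed counts), Nr0b2 (9.17) and Cyp7a1 (4.16) lay under that minimum and are described by their values only. Gpbar1, which encodes the membrane bile acid receptor TGR5, was not analysed here.

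The measurements were RNA-seq of GFP(+) cells sorted from the nonparenchymal liver fraction of adult Prom1CreERT2-nLacZ/+;Rosa26Lsl-GFP/+ mice on a C57BL/6 background. Per the study's methods, the mice were of both sexes and 6 weeks old when given tamoxifen. Tamoxifen activates a Cre expressed from the Prom1 locus and so marks Prom1-expressing hepatic progenitor cells (HPCs) and their progeny with GFP. It was given 7 days before surgery or day 0 collection. The time from tamoxifen to sorting, and with it the age, was thus longer by 3 days at BDL day 3 and by 14 days at BDL day 14. The number of males and females differed between the groups of the study, so sex and time point cannot be told apart in full. The groups were day 0, titled Sham in the labels and described in the methods as before BDL, with 3 libraries, BDL day 3 with 3 libraries, and BDL day 14 with 6 libraries by the labels. The table of group means fitted 3, 3 and 4 libraries, with the overall mean recovered to within 0.469% for 99% of genes, and which 2 BDL day 14 libraries it leaves out was not given. Values are upper-quartile normalized counts, given as 1 mean per group, so the value of each single library, and with it any test between libraries, could not be had. The error used below is an approximate within-group SD on the log2 scale, worked back from the gap between the arithmetic and geometric means over the 10 libraries, and the SE of a log2 ratio follows from it. A gene counts as lower or higher past 1.5-fold, the minimum of the study's methods. A mean was called at the floor when it was no more than 3 reads per library above the lowest mean in its group, which came to 0.512, 0.292 and 0.244 for the groups in order of time. The lowest mean in a group stands for the 1 read that was added to every value, and it was 0.128, 0.0729 and 0.061, so on average a read weighed most at day 0.

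The sorted cells did not carry the markers of 1 cell type. At day 0 the median marker stood at 320 normalized counts per kilobase of exon for 10 macrophage genes, at 78.2 for 16 hepatocyte genes and at 1.73 for 14 cholangiocyte genes. Prom1 is known from biliary progenitors, and the biliary list was the lowest of these 3 at every time point, so the values do not by themselves bear out the label of HPCs and their progeny. In order of time, the hepatocyte markers summed to 5065, 2401 and 1455. Of these sums, Trf, which was not lower, held 804, 1130 and 939. Of the 16 hepatocyte markers, 12 were lower past 1.5-fold at both BDL days, against 19% of the 12889 genes past the minimum. The 7 Kupffer cell markers summed to 10227, 22513 and 1547. All 7 were lower past 1.5-fold at BDL day 14 than at BDL day 3, against 19.7% of the 12889 genes. In a bulk sample, fewer cells of a type and less RNA per cell cannot be told apart, and the part of these shifts in the results on the bile acid genes was not tested.

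The promoters of 4 of the genes are shown because these 4 differed in how their values moved: Slco1b2 had the largest fold at BDL day 14, Abcb11 had its lower value already at BDL day 3, Cyp8b1 had most of its day 0 signal in 1 library, and Abcb4 alone stood above day 0 at BDL day 3. Each run is the 250 bases before the RefSeq start, 5′ to 3′ on the gene's strand, in build GRCm38.p6. Capitals mark exact matches, on either strand, to the motifs searched: AGGTCA (bound by nuclear receptors), CAAAGTCCA (HNF4), CAAGGTCA (LRH-1), GTTAAT (HNF1) and GAGGAAGT (PU.1). AGGTCA is contained in CAAGGTCA. RefSeq start sites were used for 9 of the 10 genes, Cyp7a1 being unmatched.
Slco1b2, chr6:141629268-141629517, plus strand: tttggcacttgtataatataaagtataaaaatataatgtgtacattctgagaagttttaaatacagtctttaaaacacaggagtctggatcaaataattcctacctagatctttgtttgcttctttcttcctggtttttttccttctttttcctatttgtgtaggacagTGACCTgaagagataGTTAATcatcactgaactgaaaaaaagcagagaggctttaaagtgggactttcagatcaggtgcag
Abcb11, chr2:69342617-69342866, minus strand: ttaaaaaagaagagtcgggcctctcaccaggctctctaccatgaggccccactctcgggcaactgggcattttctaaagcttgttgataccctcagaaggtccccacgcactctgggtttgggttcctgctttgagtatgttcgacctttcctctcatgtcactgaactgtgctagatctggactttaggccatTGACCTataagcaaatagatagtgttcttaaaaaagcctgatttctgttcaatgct
Cyp8b1, chr9:121916306-121916555, minus strand: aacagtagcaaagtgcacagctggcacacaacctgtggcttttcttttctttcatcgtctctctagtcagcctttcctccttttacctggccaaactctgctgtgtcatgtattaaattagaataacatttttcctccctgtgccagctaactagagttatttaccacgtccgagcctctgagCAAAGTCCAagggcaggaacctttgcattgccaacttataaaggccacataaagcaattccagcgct
Abcb4, chr5:8893471-8893720, plus strand: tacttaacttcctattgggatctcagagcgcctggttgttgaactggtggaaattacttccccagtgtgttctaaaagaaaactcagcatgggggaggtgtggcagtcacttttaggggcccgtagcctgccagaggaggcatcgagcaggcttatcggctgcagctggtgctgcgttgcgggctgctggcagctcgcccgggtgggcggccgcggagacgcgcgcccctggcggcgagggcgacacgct

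The Slco1b2 window held AGGTCA on the opposite strand (written TGACCT, from -81 to -76 counted from the start) and GTTAAT from -66 to -61. The Abcb11 window held AGGTCA on the opposite strand from -56 to -51, and the Cyp8b1 window held CAAAGTCCA from -67 to -59. No motif of the 5 was in the Abcb4 window, whose GC content was 61.6% against a median of 52.4% over all promoters. Of the windows not shown, Abcc2 had AGGTCA from -49 to -44, Nr1h4 had AGGTCA on the opposite strand from -214 to -209 and GTTAAT from -40 to -35, and the downstream of 2 Slc10a1 starts had AGGTCA from -87 to -82. The windows of Nr0b2, Gpbar1 and the upstream Slc10a1 start, like that of Abcb4, held no motif of the 5. Over 32851 promoter windows of the same length, 14.0% held AGGTCA, 6.43% GTTAAT, 2.44% GAGGAAGT, 1.33% CAAGGTCA and 0.384% CAAAGTCCA. A match describes these letters only. The RefSeq start of Abcb4, Abcc2 and Nr1h4 differs from the start of the gene in the table.

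All 9 genes were at low levels in these cells, and 8 of the 9, all but Abcb4, had their highest mean at day 0. At BDL day 3, 5 of the 6 genes past the minimum were lower than at day 0 by more than 1.5-fold, against 29.2% of the 12889 genes in all, and 0 were higher, against 19.2%. This count depended on the scaling and on single libraries. Under quantile normalization 3 were lower (Slco1b2, Abcb11 and Nr1h4) and 1 was higher (Abcb4, log2 ratio 0.62). With the top day 0 library left out where it could be placed, 4 were lower and 1, Cyp8b1, was higher. For Slc10a1, counted as lower, and for Abcb4 it could not be placed, so both kept their full day 0 means. At BDL day 14, 6 of the 6 were lower, against 28.8%, and 0 were higher, against 21.2%. Between the BDL days, 4 of the 6 were lower at day 14, against 19.7%, and 0 were higher, against 21.2%. With the 3 genes under the minimum, the counts were 7 of 9, 9 of 9 and 7 of 9. Among the 6647 genes of similar level described below, the shares lower in the same comparisons were 53.7%, 49.4% and 26.7%. Of the 6, all but Abcb4 reached the minimum only with their day 0 values counted. The filter thus favoured genes high at day 0, and the counts against day 0 are descriptions only. Both comparisons with day 0 share the same 3 day 0 libraries, so they are not independent.

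The median log2 ratio of the 6 genes was -1.44 at BDL day 3, -2.96 at BDL day 14 and -1.79 between the BDL days, where the medians of all 12889 genes were -0.02, -0.04 and -0.00. The BDL day 3 median was -0.47 under quantile normalization. With 1 added to each mean, the medians were -1.64 at BDL day 14 and -0.68 between the BDL days. With the highest day 0 library left out where it could be placed, the BDL day 14 median was -1.99. Slc10a1 and Abcb4 kept their full day 0 means there, and Cyp8b1 entered with both its means at the floor. The shares past the fold were larger among genes at a similar low level. Among 6647 genes whose summed counts lay in the range of the 9, from 4.16 to 75.2, 53.7% were lower at BDL day 3, 49.4% at BDL day 14 and 38.1% at both, and 26.7% were lower at BDL day 14 than at BDL day 3. This set of 6647 was chosen after the values were seen. The within-group SD of the 9 genes had a median of 1.54 on the log2 scale and ran from 0.70 to 1.86, against a median of 0.58 over all genes past the minimum and 1.27 over the 6647.

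**Figure D1:**
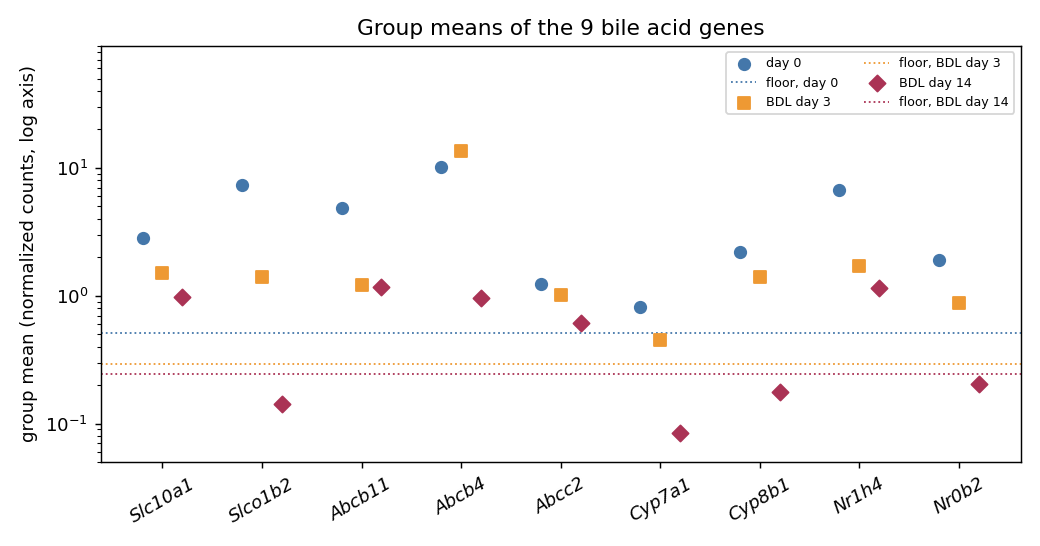
Group means (normalized counts, log axis) of the 9 genes at day 0 (3 libraries), BDL day 3 (3) and BDL day 14 (4 in the table); dotted lines mark the floor of each group. The BDL day 14 means of Slco1b2, Cyp7a1, Cyp8b1 and Nr0b2 lie under their floor of 0.244, and Abcb4 alone has its highest mean, 13.6, at BDL day 3.

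Both sinusoidal uptake carriers had lower means at both BDL days, although for Slc10a1 the direction at BDL day 3 turned under quantile normalization (log2 ratio 0.12). Slco1b2, which encodes the organic anion carrier OATP1B2 on chromosome 6 (141629518 to 141686646), had group means, again in order of time, of 7.38, 1.41 and 0.141, the last at the floor. The corresponding reads per library were about 56.7, 18.3 and 1.31, with the highest at day 0 and the lowest at BDL day 14. The log2 ratio at BDL day 3 was -2.39 ± 0.57 (SE), more than 4 times its SE, and Slco1b2 had the smallest within-group SD of the 9. That SD is pooled over all groups, so it also draws on the BDL day 14 libraries, where Slco1b2 was at the floor. By BDL day 14 the level was reduced at least 30.2-fold against day 0 and at least 5.78-fold against BDL day 3.

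Slc10a1 encodes NTCP, the sodium-dependent carrier that brings conjugated bile acids into the hepatocyte (chromosome 12, 80953183 to 80968705). Its means were 2.81, 1.5 and 0.984, or about 21.0, 19.6 and 15.1 reads per library. The log2 ratios to day 0 were -0.91 ± 1.35 (SE) and -1.51 ± 1.27 (SE). The first was smaller than its SE and the second was larger than its SE, so the 2 carriers differed in how far their values stood clear of the spread.

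All 3 canalicular exporters had lower means at BDL day 14 than at day 0, and differences between them were not tested. Abcb11 encodes BSEP, the bile salt export pump (chromosome 2, 69238282 to 69342616), and had means of 4.85, 1.22 and 1.16, with the BDL day 3 and BDL day 14 means close to each other. The log2 ratios to day 0 were -1.99 ± 1.52 (SE) and then -2.06 ± 1.42 (SE), and that between the BDL days was -0.07 ± 1.42 (SE). Abcb11 had the widest within-group SD of the 9, 1.86. In 138 bases Abcb11 is identical to Gm13613, a gene model that overlaps it on the opposite strand and was not analysed here, and strand-specific counting was not stated, so reads of the overlap cannot be assigned with certainty.

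Abcb4 encodes MDR2, the flippase that supplies phosphatidylcholine to bile (chromosome 5, 8893717 to 8959231). Its means of 10.1, 13.6 and 0.967 stood for about 77.9, 186 and 14.9 reads per library. The BDL day 3 ratio of 0.43 ± 0.83 (SE) was smaller than its SE. At BDL day 14 the log2 ratio was -3.38 ± 0.78 (SE) to day 0 and -3.81 ± 0.78 (SE) to BDL day 3, each more than 4 times its SE. This high-then-low order of the means was also that of the Kupffer cell list, whose median log2 ratios were 1.00 at BDL day 3 and -2.30 at BDL day 14. Some genes of other lists, the hepatocyte marker Cyp3a11 among them, had this order too. The part of Kupffer cells in the Abcb4 values was not tested. The gene nearest to Abcb4 in the pair of ratios, out of 120 genes of the pathway and marker lists, was Folr2 of the Kupffer cell list, at a distance of 0.35, followed by Cyp8b1 at 1.11 and Abcg5, a canalicular sterol exporter, at 1.15. Abcb4 shares 387 bases at 91.0% identity with Abcb1b, so some of its reads could have been split with that gene.

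Abcc2 encodes MRP2, the exporter of conjugated organic anions such as bilirubin glucuronide (chromosome 19, 43782192 to 43840740). Its means were 1.23, 1.01 and 0.610, the flattest series of the 9, with log2 ratios of -0.28 ± 1.45 (SE) and -1.01 ± 1.35 (SE), both smaller than their SE. The genes nearest to it were Scp2 at 0.38, Slc4a2 at 0.39 and Cps1 at 0.52.

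**Figure D2:**
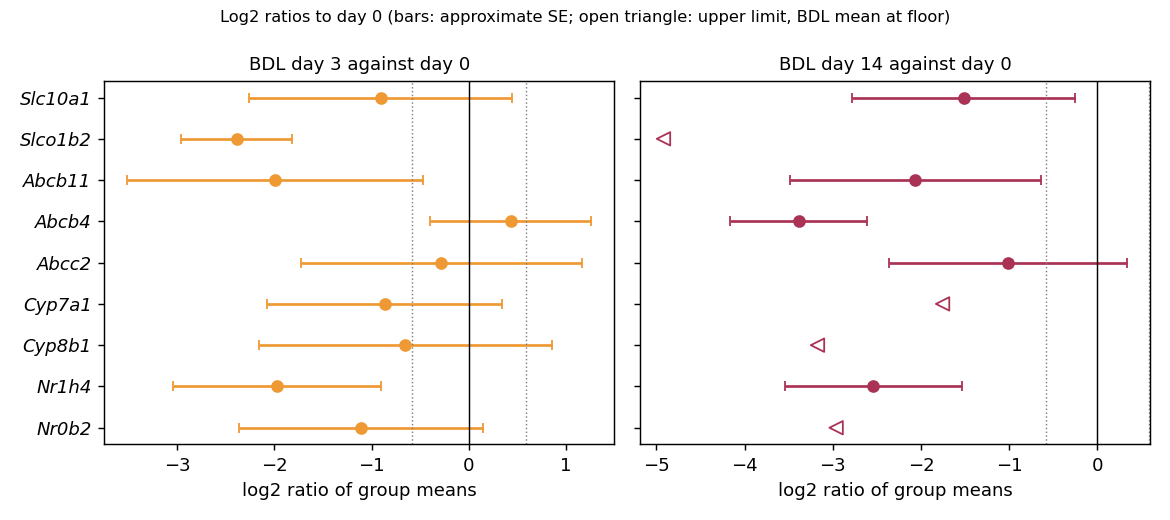
Log2 ratio of group means to day 0 at BDL day 3 and BDL day 14 for the 9 genes, with bars of 1 approximate SE and dotted lines at 1.5-fold. Open triangles are upper limits for genes whose BDL day 14 mean was at the floor. Among the genes drawn with a bar, that of Slco1b2 stays furthest from 0 at BDL day 3 and that of Abcb4 at BDL day 14.

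The synthesis enzymes were low throughout. Cyp7a1, the rate-limiting enzyme of the classical pathway of bile acid synthesis (chromosome 4, 6265612 to 6275633), had means of 0.823, 0.452 and 0.0843, about 5.43, 5.20 and 0.382 reads per library. Its BDL day 14 level was reduced at least 3.37-fold from day 0. Cyp8b1, the sterol 12-alpha-hydroxylase that directs synthesis toward cholic acid (chromosome 9, 121914356 to 121916305), had means of 2.20, 1.40 and 0.178, the last at the floor and reduced at least 9.02-fold from day 0. Its log2 ratio at BDL day 3 was -0.65 ± 1.51 (SE), smaller than its SE, and it turned to 0.45 under quantile normalization.

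Both day 0 means rested on 1 library. The highest of the 10 library values was 1.97 for Cyp7a1 and 5.67 for Cyp8b1, and by size each could only be a day 0 library, holding 79.8% and 85.9% of the day 0 signal. The other 2 day 0 libraries averaged 0.25 and 0.465, both under the floor. Without that library the BDL day 3 mean of Cyp8b1 was at least 2.73-fold higher than day 0, in place of lower. The log2 ratio of Cyp7a1 turned to 0.86 with day 0 at the floor. Its BDL day 3 mean of 0.452 lay under the day 0 floor of 0.512, so its direction was not settled. At BDL day 14 both groups were then at the floor for both genes, so the limits of 9.02-fold and 3.37-fold rest on that library and no fold is left without it. Whether 1 library held the top value of both genes cannot be told from the table.

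**Figure D3:**
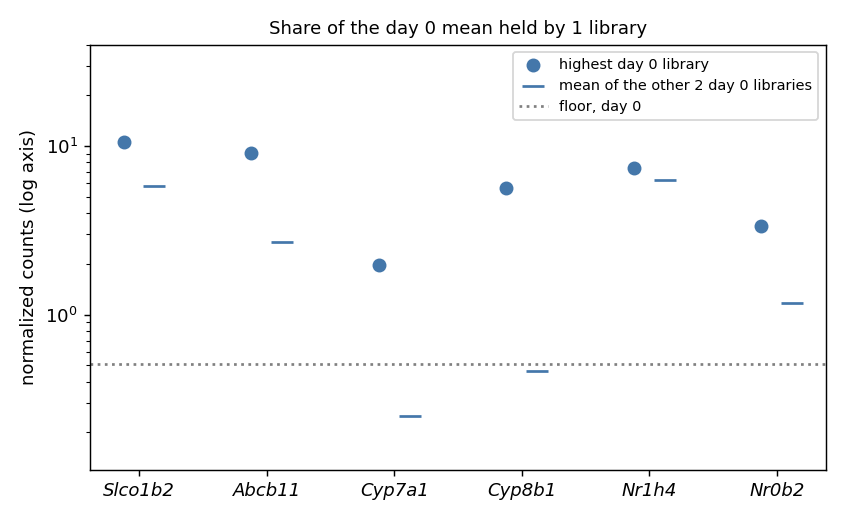
For the 6 genes whose highest library could be placed at day 0, that library (circle) and the mean of the other 2 day 0 libraries (bar), in normalized counts on a log axis; the dotted line is the day 0 floor. For Cyp7a1 and Cyp8b1 the other 2 libraries average under the floor, and for Nr1h4 they average 6.32 against 7.41.

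The same placing was possible for 4 further genes. The highest library held 62.8% of the day 0 signal of Abcb11, 58.9% of Nr0b2, 47.9% of Slco1b2 and 37.0% of Nr1h4. Without it the log2 ratios at BDL day 3 were -1.15 for Abcb11, -0.40 for Nr0b2, -2.03 for Slco1b2 and -1.89 for Nr1h4, so these 4 kept their direction. The BDL day 14 limit without it was 23.6-fold for Slco1b2 and 4.80-fold for Nr0b2. Slco1b2 and Nr1h4 were therefore the genes of the 6 whose lower values rested least on 1 library.

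Among the sensors, Nr1h4, which encodes FXR (chromosome 10, 89454234 to 89533585), had means of 6.68, 1.70 and 1.15, about 51.2, 22.3 and 17.9 reads per library. Its log2 ratios were -1.97 ± 1.07 (SE) at BDL day 3 and -2.54 ± 1.00 (SE) at BDL day 14, the latter more than 2 times its SE. Per kilobase of exon it was the most abundant of the 9 at day 0, at 2.90, ahead of Nr0b2 at 1.68, Slco1b2 at 1.5, Slc10a1 at 1.28, Cyp8b1 at 1.13, Abcb4 at 1.08, Abcb11 at 0.942, Cyp7a1 at 0.197 and Abcc2 at 0.144. Neighbours in this order differed by less than the larger of their within-group SDs, except for the step from Abcb11 to Cyp7a1. Nr0b2, which encodes the FXR target SHP (chromosome 4, 133553376 to 133556536), had means of 1.90, 0.884 and 0.203, with a log2 ratio of -1.10 ± 1.25 (SE) at BDL day 3 and a BDL day 14 mean at the floor, reduced at least 7.79-fold with all day 0 libraries and at least 4.80-fold without the highest.

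The nearest genes to Nr1h4 in the pair of ratios were Acox2 at 0.14, Baat at 0.21 and Sox9 at 0.25. Those of Abcb11 were the hepatocyte marker Fgb at 0.06, Sox9 at 0.29 and Acox2 at 0.46, and those of Slc10a1 were Muc1 at 0.16, Cps1 at 0.45 and Apoa1 at 0.48. Each distance rests on 2 ratios that share a day 0 mean, and is a description only.

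**Figure D4:**
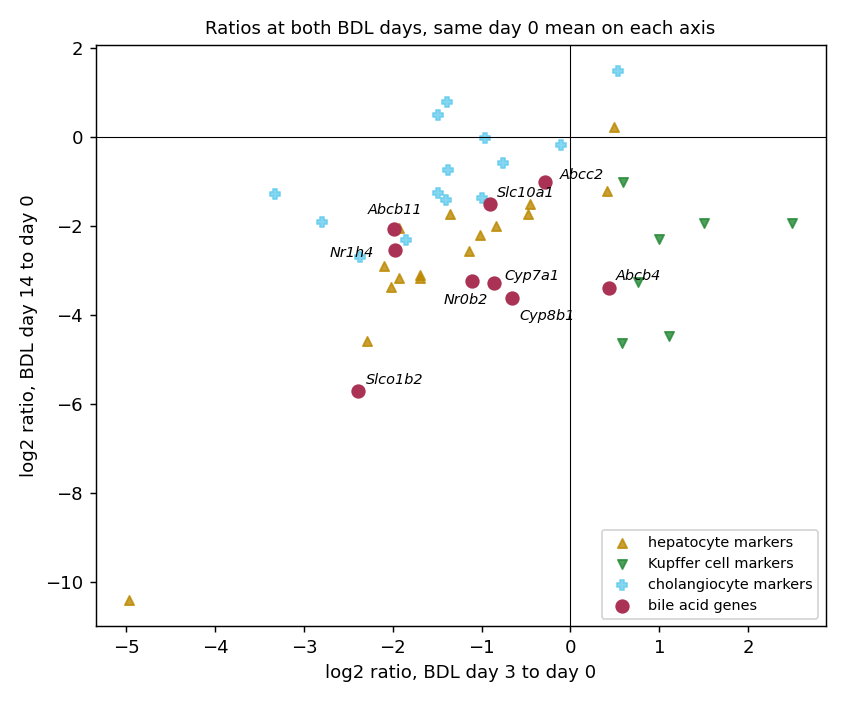
Log2 ratio to day 0 at BDL day 3 (x) and BDL day 14 (y) for the 9 bile acid genes and for hepatocyte, Kupffer cell and cholangiocyte markers; ratios of genes with a mean at the floor are plotted as computed. 8 of the 9 lie below 0 on both axes, where most hepatocyte and cholangiocyte markers also lie, and Abcb4 lies beside the Kupffer cell markers.

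The wider pathway was examined in 46 further genes of synthesis, uptake, export, efflux and control, of which 33 passed the minimum. At BDL day 3, 19 were lower and 6 higher, and at BDL day 14, 17 were lower and 5 higher, with medians of -1.01 and -0.63. The shares over all 12889 genes were those given above for each day. Lower at both BDL days were 15 of the 33, against 19% of all genes, and higher at both were 0, against 10.8%. Among the 6647 genes at the level of the 9, the share lower at both days was 38.1%. That set was matched to the 9 and not to the 33, some of which, such as Abcc3 and Scp2, lay far above its range. In synthesis and conjugation the genes lower at both BDL days were Akr1c6, Akr1d1, Amacr, Acox2, Slc27a5, Baat and Cyp39a1. Akr1d1, the steroid 5-beta-reductase of the bile acid ring, had means of 11.5, 3.69 and 1.09, and Baat, which joins bile acids to taurine or glycine, had 10.2, 2.34 and 1.59. Akr1c6 went from 36.9 to 5.75 and 1.83, a log2 ratio of -4.33 ± 0.51 (SE) at BDL day 14.

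In export the genes lower at both days were Abcb1a and Atp8b1, the flippase of the canalicular membrane, at 2.42, 0.822 and 0.477. In control they were Nr1i2, Nr1i3, Hnf4a, Fgfr4 and Pdzk1. Hnf4a, a hepatocyte transcription factor, had means of 27.8, 6.47 and 3.74, with log2 ratios of -2.10 ± 0.31 (SE) and -2.89 ± 0.29 (SE) and a within-group SD of 0.38. Nr1i2, the xenobiotic and bile acid receptor PXR, had 6.99, 1.58 and 0.387. By their medians, several marker lists were also lower at both BDL days. The hepatocyte list, which also holds Hnf4a, had medians of -1.52 and then -2.38, the cholangiocyte list had -1.39 and -0.75 with 7 of 11 genes lower at both days, and the mesenchymal list had -5.10 and -3.31 with 10 of 10 lower at both. By sum, the cholangiocyte list went from 544 to 213 and then 850, above day 0 at BDL day 14, where 2 of its genes were higher. The part of these lists in the values of the pathway genes was not tested.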

How the data were processed

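RNA-seq libraries of sorted GFP(+) cells were labelled as 3 day 0, 3 BDL day 3 and 6 BDL day 14 samples. Per the labels and the study's methods, the authors aligned reads to mm10 with STAR (2.6.1d in the submitters' processing notes) in Partek Flow, counted against GENCODE, applied a minimum of 10 reads and scaled by the upper quartile. The deposited table gives this normalized signal, in normalized counts, as a least-squares mean per group, the arithmetic and geometric means over 10 libraries and the highest library, which is not named. No column holds single libraries, so library totals are unknown here. Whole-read steps in low genes showed 1 read added to each value. At day 0 the steps were 0.116 for 2 libraries and 0.153 for 1, which sum to 0.385 against 3 times the lowest mean, 0.384. At BDL day 14 the steps were less even, at 0.028, 0.031, 0.065 and 0.120. Reads per library and floors use the average step of a group, so they are not read counts of single libraries. Floors cover counting error only, and each SE covers the spread between libraries. The authors' own comparison columns (p-values, adjusted p-values, ratios, fold changes and limits) were not used.

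Groups were compared by log2 ratios of means, with no test, in Python 3.11.15 with numpy 2.4.6 and pandas 2.3.3; near copies came from blast 2.17.0. The approximate SD is pooled over the 3 groups, those at the floor included, and has 7 residual degrees of freedom. In simulated data over 12889 genes, a true SD of 1 was returned as a median of 0.925 and a true SD of 2 as 1.75, so it runs low. The study calls the libraries biological replicates. Named were the 10 genes, the pathway genes past 1.5-fold in the same direction at both BDL days, and the 3 list genes nearest to each gene with no mean at the floor; 1 gene that met the rule is not reported here. The genes and lists were chosen with earlier results of these data known. Pathway and marker lists came from general knowledge. Alternatives covered pseudocounts, scaling, filter, minimum fold and the highest library.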

Additional observations from a re-analysis of the deposited data

How the results depend on the processing

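No paired analysis was possible because the table holds no values of single libraries, and leaving out each replicate in turn could not be run for the same reason. Without the highest day 0 library, the BDL day 3 log2 ratio changed sign to 0.86 for Cyp7a1 and to 1.59 for Cyp8b1, with day 0 then at the floor. For Cyp7a1 the BDL day 3 mean also lay under the day 0 floor, so its direction was not settled. Under quantile normalization of the 3 group means the BDL day 3 log2 ratio reversed to 0.12 for Slc10a1 and 0.45 for Cyp8b1. The median of all genes there shifted to 0.12, and the cause was not tested. Counted by direction, quantile normalization left 3 genes lower (from 5) and 1 higher (from 0) at BDL day 3. Leaving out the highest day 0 library where it could be placed, so not for Slc10a1 and Abcb4, left 4 lower and 1 higher. The count of genes lower at BDL day 3 was 3 at a minimum of 2-fold and 1 at 4-fold, and that between the BDL days went from 4 to 7 with no filter, by construction of these settings. No gene of the 10 had a mean of at least 10 over all libraries, so that filter gave no value. Every alternative count not named here stayed within 1.5 times. No median changed sign, and their shifts stayed under 1.54, the median SD of single genes, which is a wide yardstick for a median: they ran from -1.44 to -0.47 at BDL day 3, from -3.23 to -1.64 at BDL day 14 and from -2.12 to -0.68 between the BDL days. Of 138 log2 ratios of single genes, 118 moved by less than the spread, 16 moved by more in the same direction and 4 reversed. Removal of the added read, counts by direction and counts without the highest library were chosen after seeing the data. Depth limits Cyp7a1, at about 5 reads per library, and every BDL day 14 value at the floor.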

Other observations

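Some pathway genes that lay outside the naming rule, chosen here after their values were seen, were higher than at day 0 at 1 BDL day. Abcc3, which encodes the sinusoidal efflux pump MRP3, had means, in order of time, of 125, 375 and 153, a log2 ratio of 1.58 ± 0.31 (SE) at BDL day 3. Abcc1, the related pump MRP1, had 21.4, 48.1 and 28.8. Slco2b1, an organic anion carrier of the uptake list, had 5.11, 2.87 and 42.0, a log2 ratio of 3.04 ± 0.80 (SE) at BDL day 14. S1pr2, a receptor for conjugated bile acids, had 7.33, 10.1 and 22.9, a log2 ratio of 1.64 ± 0.38 (SE) at BDL day 14. The marker list of recruited monocytes or macrophages had a median log2 ratio of 1.23 and then 4.61 at the BDL days. The macrophage list had 0.79 and then 0.10, and the Kupffer cell list 1.00 and then -2.30. The part of these lists in the values of the named genes was not tested.

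Of the synthesis list, Cyp27a1, the first enzyme of the alternative pathway, had means of 38.3, 30.1 and 28.6, a log2 ratio of -0.42 ± 0.32 (SE) at BDL day 14.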
